A study of Homo sapiens with 4 samples.

Results

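The genes described here belong to the Wnt pathway: its secreted ligands, the receptors on the cell surface, the inhibitors, the TCF/LEF transcription factors and genes that the pathway is known to induce. Members were taken from a list of 51 gene symbols, and every probe set whose only annotated symbol was on the list was used. That gave 113 of the 54613 probe sets and 47 of the 19775 measured genes. WNT3 and FZD8 were matched only by probe sets that carry a further symbol, and PORCN and TCF7 by none in the annotation used, so these 4 are not analysed here. The rule names genes by pathway role, but the list was chosen with earlier results of these data known, so its counts are a description.

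The data were 4 Affymetrix 3′ expression arrays of RNA from cells labelled HuCCT1, an established cell line of human intrahepatic bile duct cancer (cholangiocarcinoma). The labels give 2 arrays as wild type for ARID1A and 2 as knockout. ARID1A is a DNA-binding component of SWI/SNF, a complex that remodels chromatin, and the series asked what its loss does to gene expression in these cells. Per the labels, all cells came from one purchased line grown in RPMI medium with serum. The knockout cells were infected with a lentiviral Cas9 vector carrying 1 guide RNA against ARID1A, put under puromycin selection and diluted to single-cell clones. Whether the wild-type cells received a vector or puromycin, and whether each array had its own culture or clone, is not given. The p-values therefore cover only array-to-array spread within a group, which may be technical.

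In the canonical Wnt pathway a ligand bridges a Frizzled receptor and the co-receptor LRP5 or LRP6. This stops the destruction complex of APC and the Axins from marking beta-catenin for degradation, and beta-catenin then joins TCF/LEF factors on target genes, several of which feed back on the pathway. Other ligands, such as WNT5A, act through Frizzled and ROR receptors on cell polarity and movement without beta-catenin. In the liver Wnt signalling is known for zonation and regeneration, and in bile duct cancer for tumour growth.

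The mRNA of ARID1A, checked first, stood at 8.55 and 8.61 on the wild-type arrays and at 6.15 and 5.95 on the knockout-labelled arrays, −2.53 ± 0.11 on the log2 scale (SE; adjusted p = 1.40e-04 by limma), and 3 of its 4 probe sets fell. A sample identity check set 2 of the 4 arrays apart from the other 2. The groups therefore carry their labels as names, and no difference below is credited to loss of ARID1A. Across genes, arrays of one group correlated at 0.995 to 0.997 and arrays of different groups at 0.920 to 0.921. The keratins KRT7, KRT19, KRT8 and KRT18, listed here as bile duct markers, were above 10 on every array. Between the groups KRT7 (−2.32) and KRT19 (−0.92) were lower, KRT8 was higher (0.82) and KRT18 did not pass.

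Markers of cell types moved as well. Of 9 measured bile duct markers 4 fell and 2 rose, and their summed linear level was 19542 to 20410 on the wild-type and 13763 to 14601 on the knockout-labelled arrays. EPCAM differed by −4.73 ± 0.11, CFTR by −4.40 ± 0.12 and SPP1 by 8.58 ± 0.19. The summed level of 8 fibroblast markers was 742 to 743 against 103 to 120, with COL1A1, LUM and POSTN lower. COL1A1 had by far the highest wild-type mean of these 8, at 8.96, so the wild-type sum is mostly this gene. The other 5 did not pass, COL1A2 (0.62), COL3A1 (0.29) and THY1 (0.25) above 0 and DCN (−0.25) and PDGFRB (−0.19) below. That of 10 hepatocyte markers was 1769 to 1907 against 322 to 419, with SERPINA1 lower and ALB, TTR, FGB and CPS1 higher. SERPINA1 had by far the highest wild-type mean of these 10, at 10.72, so the wild-type sum is mostly this gene. The leukocyte marker PTPRC and the endothelial markers VWF, CDH5 and KDR lay under the median of all probe sets in both groups. The endothelial markers PECAM1 (4.67 against 4.76) and CLDN5 (4.56 against 4.70) lay above it in both groups and did not pass. CD14 was lower and TEK higher. The summed level was 70.8 to 77.3 against 55.1 to 60.8 for 6 leukocyte markers and 81.6 to 84.8 against 85.3 to 101.9 for 6 endothelial markers. The part of these shifts in the results below was not tested. In RNA from many cells, fewer cells of a type and less RNA per cell cannot be told apart.

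Sequences at the start sites are shown for 3 members whose values mark the main contrasts: SP5, a textbook direct target that stayed under the median of the array in both groups, DKK1, an inhibitor that was lower, and BAMBI, a target that was higher. Each is the run of 250 bases before the annotated start, from RefSeq on GRCh38.p14, read 5′ to 3′ on the plus strand, on which all 3 genes lie. The positions are chr2:170715087-170715336 for SP5, chr10:52314031-52314280 for DKK1 and chr10:28677271-28677520 for BAMBI. Capitals mark matches, on either strand, to the TCF/LEF letters, which are CTTTGAA or CTTTGAT or else CTTTGTA or CTTTGTT, to the AP-1 letters TGANTCA or to the TATA box letters TATAAA, none of which overlapped here.
SP5: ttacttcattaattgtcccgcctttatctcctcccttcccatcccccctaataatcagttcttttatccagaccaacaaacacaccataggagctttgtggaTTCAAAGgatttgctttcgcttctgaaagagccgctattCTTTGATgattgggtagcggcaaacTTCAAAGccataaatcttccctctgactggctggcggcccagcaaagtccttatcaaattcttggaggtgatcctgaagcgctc
DKK1: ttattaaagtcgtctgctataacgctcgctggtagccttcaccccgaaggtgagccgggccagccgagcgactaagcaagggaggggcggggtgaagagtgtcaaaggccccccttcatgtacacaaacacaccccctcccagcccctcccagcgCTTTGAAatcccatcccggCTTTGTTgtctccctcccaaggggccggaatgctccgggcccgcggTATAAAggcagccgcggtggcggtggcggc
BAMBI: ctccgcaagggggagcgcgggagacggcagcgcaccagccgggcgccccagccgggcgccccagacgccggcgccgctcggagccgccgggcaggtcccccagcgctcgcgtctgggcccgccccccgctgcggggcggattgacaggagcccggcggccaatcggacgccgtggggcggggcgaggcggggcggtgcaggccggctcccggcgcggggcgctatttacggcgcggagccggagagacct
SP5 held 3 TCF/LEF matches, beginning 148, 109 and 84 bases before the start. DKK1 held 2, at 95 and 76 bases, and a TATA box at 30 bases. BAMBI held none, and was instead dense in CpG, with 41 in its 250 bases against 18 in DKK1, 6 in SP5 and a median of 11 over all windows. Among all 35116 such windows, 12% held a TCF/LEF match, 6.57% an AP-1 match and 10.7% a TATA box. The table gave 37 windows for 29 of the 47 members, and TCF/LEF matches stood in 3 of these genes, SP5, DKK1 and TCF7L2, an AP-1 match in RNF43 and a TATA box in DKK1 and WNT5B. A match of letters is a description and not a bound site.

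Over the whole pathway list, 23 of the 47 measured genes passed the threshold (adjusted p under 0.05 by limma, adjusted over all 19775 genes), which is 48.9% against 38.7% of all genes. In the knockout-labelled arrays 16 members were higher (34.0%, against 21.5% of all genes) and 7 lower (14.9%, against 17.2%). At a difference of at least 2-fold, 14 members were called (29.8%, against 16.6%). The median log2 difference, knockout-labelled minus wild type, was 0.17 over the members and 0.06 over all genes. The 2 groups of arrays did not overlap in 32 members (68.1%), close to the 66.4% of all genes, so that lack of overlap is common to the whole array. No test set the list against other genes. Leaving out 1 array gave between 17 and 24 called members, while the count over all genes was 3939 when wild-type replicate 1 was dropped and 4061 when wild-type replicate 2 was.

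Values are on the log2 scale of RMA, where the median of all probe sets was 4.01. RMA makes no detection call, and a value under that median says only that the probe set was among the dimmer ones. Both group means lay under it in 13 members, of which 2 were called, WNT2B and TCF7L1. Levels of different genes come from different probes and are not set against each other here.

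**Figure D1:**
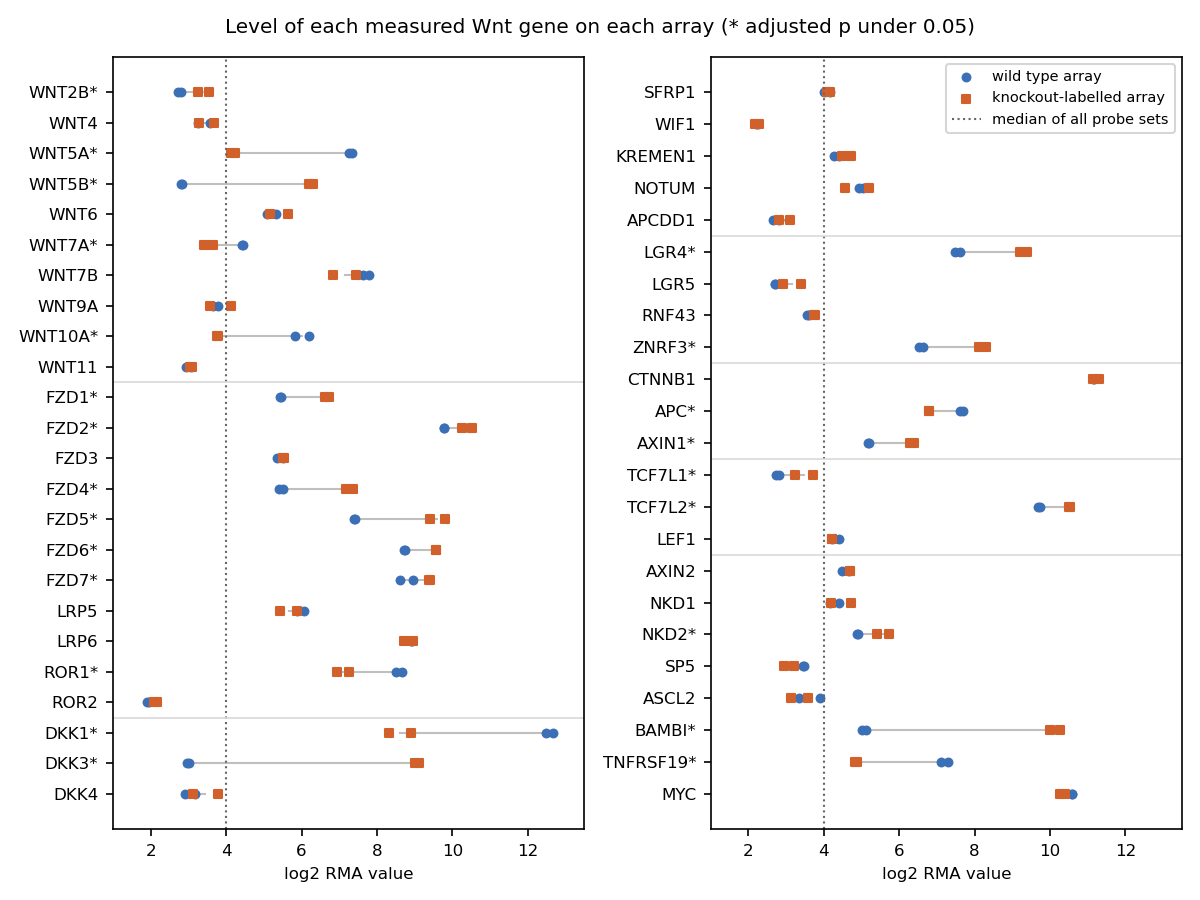
Level of each of the 47 measured Wnt genes (rows, ordered by role, grey lines between roles) on each of the 4 arrays, as log2 RMA values; circles are the 2 wild-type and squares the 2 knockout-labelled arrays, grey bars join the group means, the dotted line is the median of all probe sets (4.01) and asterisks mark the 23 called genes. WNT5A and WNT5B lie on opposite sides, as do DKK1 and DKK3, and the members SP5, LGR5, ASCL2 and RNF43 stay left of the dotted line on every array.

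Among the ligands, WNT5A and WNT5B, close relatives that signal mainly without beta-catenin, differed in opposite directions. WNT5A was measured at 7.33 and 7.27 on the wild-type arrays and 4.22 and 4.14 on the knockout-labelled arrays. The arrays of each group lay close together and the groups far apart, a log2 difference of −3.12 ± 0.10 (SE, adjusted p = 5.67e-05), or 8.69-fold. Its second probe set fell from 6.77 ± 0.15 to 2.81 ± 0.11 (SD, n = 2 each). WNT5B stood at 2.83 and 2.81 in the wild type and at 6.31 and 6.20 in the knockout-labelled arrays, a difference of 3.44 ± 0.10 (adjusted p = 4.41e-05). The wild-type values lay at percentile 29.8 of all values, under the median of the array. With values under the median raised to it the difference was 2.25, and the other 2 probe sets of WNT5B were dim and not called.

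WNT10A, a ligand of the canonical branch, stood at 5.84 and 6.20 in the wild type and fell to 3.75 and 3.79, below the median of the array (−2.25 ± 0.15, adjusted p = 4.05e-04). This rests on 1 of its 2 probe sets. The other read 3.35 and 3.40 against 3.50 and 3.13, and with probe sets ending in _x_at or _s_at left out it alone represented the gene, at −0.06 (adjusted p = 0.836). WNT7A, also of the canonical branch, was 4.46 and 4.43 against 3.41 and 3.66 (−0.91 ± 0.12, adjusted p = 0.0038), a call lost without wild-type replicate 1 (adjusted p = 0.0583) or wild-type replicate 2 (0.0552). With values under the median raised to it, WNT7A differed by −0.44. WNT7B, a ligand made by many epithelia, read 7.78 and 7.64 in the wild type and 7.44 and 6.84 in the knockout-labelled arrays, lower on both but with its knockout-labelled arrays 0.60 apart, and it did not pass (−0.57 ± 0.22, adjusted p = 0.101). Its difference ranged from −0.27 without knockout replicate 2 to −0.87 without knockout replicate 1, where it was called (adjusted p = 0.0253). WNT7B was also called with an intensity trend in the variance (0.0253) and without the lowest 60 percent of genes (0.0278).

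WNT2B, WNT4, WNT9A and WNT11 had both group means under the median of the array. WNT2B rose within that low range, from 2.72 and 2.81 to 3.54 and 3.24 (0.62 ± 0.13, adjusted p = 0.018). The call was lost without wild-type replicate 1 (adjusted p = 0.142), wild-type replicate 2 (0.111) or knockout replicate 1 (0.0545) and with the mean of its probe sets (0.0593). WNT4, WNT6, WNT9A and WNT11 had differences of 0.06 to 0.20 that did not pass. Of the 10 measured ligands, 2 rose (20.0%, against 21.5% of all genes), 3 fell (30.0%, against 17.2%) and 5 did not pass, with a median difference of 0.06.

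Among the receptors, most Frizzleds stood higher on the knockout-labelled side. Of the 11 measured receptors 6 rose, all of them Frizzleds (54.5%, against 21.5% of all genes), 1 fell (9.09%, against 17.2%) and 4 did not pass, with a median difference of 0.60 against 0.06 over all genes. FZD5, a receptor of canonical ligands in epithelia, went from 7.41 and 7.40 to 9.79 and 9.42 (2.20 ± 0.15, adjusted p = 4.70e-04). Both of its probe sets rose, the second by 0.66. FZD4, which also binds the non-Wnt ligand Norrin, went from 5.39 and 5.50 to 7.37 and 7.17 (1.82 ± 0.12, adjusted p = 3.73e-04), and FZD1 from 5.45 and 5.43 to 6.63 and 6.74 (1.24 ± 0.10, adjusted p = 7.32e-04). In each of these 3 genes every knockout-labelled array was above both wild-type arrays by 1 log2 unit or more. FZD4 and FZD1 each had further, dimmer probe sets that were not called.

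FZD6, a receptor of the polarity branch, rose less, from 8.73 and 8.76 to 9.56 on both knockout-labelled arrays (0.82 ± 0.09, adjusted p = 0.00219). FZD2 went from 9.78 and 9.77 to 10.51 and 10.25 (0.60 ± 0.12, adjusted p = 0.0156), and FZD7 from 8.96 and 8.61 to 9.42 and 9.39 (0.62 ± 0.14, adjusted p = 0.0235). FZD6 kept its call without each array in turn. FZD2 lost its call without wild-type replicate 1 (0.61, adjusted p = 0.118) or wild-type replicate 2 (0.60, adjusted p = 0.12), at about the same size, and FZD7 lost it without wild-type replicate 2 (0.106), knockout replicate 1 (0.116) or knockout replicate 2 (0.117). FZD3 did not pass in any of its 4 probe sets, at 5.35 and 5.50 against 5.51 and 5.54.

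The co-receptors and ROR kinases did not follow the Frizzleds. LRP6 stood at 8.92 on both wild-type arrays and at 8.96 and 8.71 on the knockout-labelled arrays (adjusted p = 0.663). Its other probe sets were lower without overlap of the groups, at −0.61 and −0.42, and did not pass (probe set fit, adjusted p = 0.11 and 0.187). LRP5 was 5.88 and 6.07 against 5.89 and 5.42 (adjusted p = 0.25), while its dimmer probe set rose from 3.39 and 3.38 to 4.05 and 3.92 (limma probe set fit, adjusted p = 0.0181), so the probe sets of this gene disagree. ROR1, a receptor for WNT5A, fell from 8.68 and 8.50 to 6.94 and 7.25 (−1.49 ± 0.15, adjusted p = 0.00141). A second probe set of ROR1 fell by 1.60 and the third did not pass, at 0.28. ROR2, its relative, was under the median of the array in both groups, at 1.96 and 1.91 against 2.08 and 2.16.

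**Figure D2:**
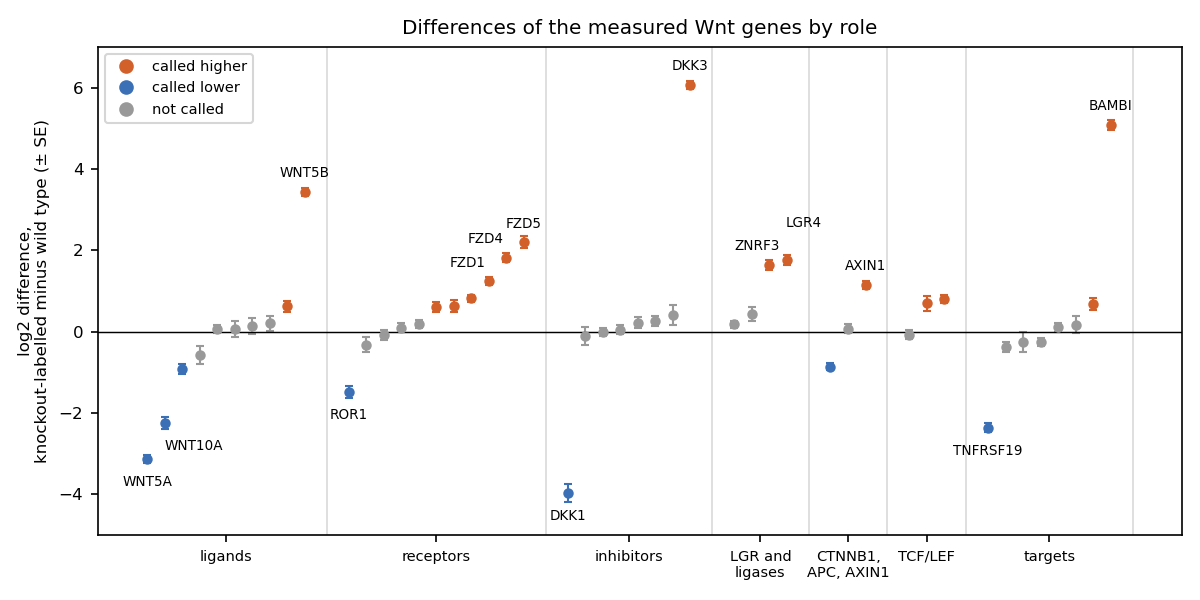
Log2 difference (knockout-labelled minus wild type, n = 2 arrays each) of the 47 measured Wnt genes, grouped by role on the horizontal axis and sorted within a role; bars are the moderated SE from limma, and genes with a difference of at least 1 are named. DKK3 (6.07) and DKK1 (−3.97) mark the ends of the range, and 6 of the 11 receptors lie above 0 as called genes.

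The secreted and surface inhibitors split into 2 that changed widely (25% called, against 38.7% of all genes) and 6 that did not pass. DKK1, which blocks LRP5 and LRP6, stood at 12.67 and 12.50 in the wild type, percentile 99.6 of all values. On the knockout-labelled arrays it read 8.91 and 8.32, still at percentile 92.0 (−3.97 ± 0.22, adjusted p = 2.34e-04), a 15.6-fold difference from its only probe set. DKK3, a family member not established as an LRP antagonist and often silenced in tumours, stood at 3.01 and 2.97 in the wild type and at 9.11 and 9.0 in the knockout-labelled arrays. The difference was 6.07 ± 0.10 (adjusted p = 1.59e-05), or 5.05 with values under the median raised to it, and it was the largest in size among the 47 members. Of the 6 probe sets of DKK3, 4 rose, by 2.58 to 6.07, and the other 2 were dim on every array.

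WIF1 and SFRP1, secreted proteins that bind Wnts, differed little: WIF1 had the same mean of 2.23 in both groups and SFRP1 read 4.15 and 4.0 against 4.10 and 4.16. DKK4 and APCDD1, a membrane inhibitor, lay under the median in both groups. NOTUM, an enzyme that removes the lipid from Wnts, stood at 5.04 and 4.93 against 4.57 and 5.21, with the knockout-labelled arrays on either side of the wild type. KREMEN1, a receptor for DKK1, did not pass on the probe set used (0.26 ± 0.13, adjusted p = 0.179), while 1 of its other 4 probe sets rose by 0.91 (probe set fit, adjusted p = 0.0396).

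The R-spondin receptors LGR4 and LGR5 sustain Frizzleds at the surface, and the ubiquitin ligases RNF43 and ZNRF3 remove them. LGR4 rose from 7.61 and 7.47 to 9.20 and 9.39 (1.76 ± 0.12, adjusted p = 4.28e-04), and ZNRF3 from 6.62 and 6.52 to 8.30 and 8.12 (1.64 ± 0.11, adjusted p = 4.64e-04). The groups of both genes lay well apart. For LGR4 this rests on 1 of 3 probe sets: when _x_at and _s_at probe sets were removed its difference was 0.003 (adjusted p = 0.994). RNF43 stayed under the median, at 3.55 and 3.59 against 3.73 and 3.77, and so did LGR5, a stem cell receptor and target of the pathway, at 2.71 and 2.70 against 2.92 and 3.38. Neither passed (adjusted p = 0.212 and 0.11), although LGR5 did without knockout replicate 1 (0.67, adjusted p = 0.0259).

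CTNNB1, the gene of beta-catenin, differed by 0.07 ± 0.11 (adjusted p = 0.676), at 11.16 and 11.14 in the wild type and 11.13 and 11.31 in the knockout-labelled arrays. None of its 3 probe sets passed. The scaffolds of the destruction complex moved apart. APC fell from 7.68 and 7.62 to 6.79 and 6.80 (−0.86 ± 0.09, adjusted p = 0.00199), and 4 of its 5 probe sets fell, by 0.66 to 1.48. AXIN1 rose from 5.20 and 5.18 to 6.40 and 6.27 (1.15 ± 0.10, adjusted p = 9.91e-04) on its 1 probe set. These arrays measure mRNA, and neither the amount nor the place of beta-catenin protein was measured.

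Of the TCF/LEF factors, TCF7L2, the form best known from intestinal epithelium, rose from 9.74 and 9.69 to 10.50 and 10.53 (0.80 ± 0.09, adjusted p = 0.00253). The arrays of a group differed by at most 0.06. Of its 7 probe sets 5 rose, by 0.46 to 0.90, and none was called lower. Another was lower without overlap of the groups, at −0.55, and did not pass (limma probe set fit, adjusted p = 0.224). TCF7L1, often a repressor, rose within the low range, from 2.80 and 2.74 to 3.22 and 3.71 (0.70 ± 0.18, adjusted p = 0.0341). That call was lost without wild-type replicate 1 (adjusted p = 0.175), wild-type replicate 2 (0.205) or knockout replicate 2 (0.0582). LEF1, itself a target of the pathway, had probe sets that disagreed. The one used read 4.39 and 4.21 against 4.22 and 4.22 and did not pass, another rose by 1.19 (probe set fit, adjusted p = 0.011), and the mean of all 3 gave 0.47 (adjusted p = 0.0134).

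**Figure D3:**
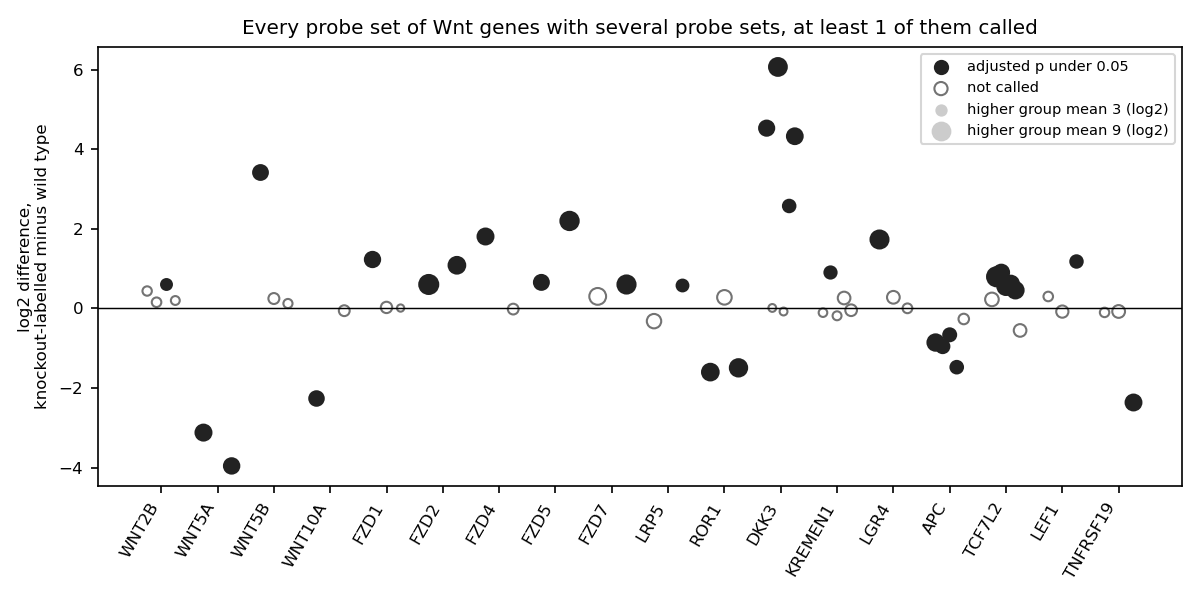
Log2 difference (knockout-labelled minus wild type) of every probe set of the Wnt genes that have several probe sets and at least 1 called; filled circles passed an adjusted p of 0.05 over all 54613 probe sets, open circles did not, and circle area grows with the higher of the 2 group means. WNT5A, FZD2 and FZD5 have all probe sets called, and in no gene were probe sets called in opposite directions.

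Of the 8 genes known as feedback genes and targets, 2 rose, 1 fell and 5 did not pass, so that 37.5% were called against 38.7% of all genes. AXIN2, the feedback target most used as a readout of beta-catenin signalling, read 4.48 and 4.67 in the wild type and 4.69 on both knockout-labelled arrays (0.11 ± 0.11, adjusted p = 0.49). None of its 4 probe sets passed. NKD1, a feedback inhibitor that binds Dishevelled, was 4.17 and 4.41 against 4.20 and 4.73 (adjusted p = 0.58). SP5 and ASCL2, transcription factors induced by the pathway, lay under the median in both groups. SP5 was 3.48 and 3.45 against 3.22 and 2.95 (adjusted p = 0.0699, and 0.0421 without knockout replicate 1), and its 3 TCF/LEF letter matches are printed above.

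BAMBI, a decoy receptor of the TGF-beta family that is also listed as a Wnt target, had the second largest difference of the members. It stood at 5.00 and 5.11 in the wild type and at 10.27 and 10.00 in the knockout-labelled arrays (5.08 ± 0.13, adjusted p = 3.27e-05), 33.9-fold on its 1 probe set. TNFRSF19, a receptor of the TNF family also known as TROY, went the other way, from 7.30 and 7.11 to 4.87 and 4.82 (−2.36 ± 0.11, adjusted p = 1.52e-04). That fall was seen in 1 of its 3 probe sets, while the others differed by −0.08 and −0.10. NKD2, the relative of NKD1, rose from 4.89 on both wild-type arrays to 5.73 and 5.41 (0.68 ± 0.14, adjusted p = 0.0155), a call lost without wild-type replicate 1 (0.121) or wild-type replicate 2 (0.123). MYC, a growth-promoting transcription factor, was high in both groups, at 10.57 and 10.59 against 10.40 and 10.26 (−0.25 ± 0.10, adjusted p = 0.122). It passed when the variance was allowed to follow the level (adjusted p = 0.00915), with the same small difference.

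Counted by probe set, 39 of the 113 passed (34.5%), against 26.9% of all 54613 probe sets, 27 higher (23.9%, against 13.9%) and 12 lower (10.6%, against 13%). The groups did not overlap in 68 of them (60.2%, against 60.3% of all probe sets). The probe sets of a gene share its RNA and are no replicates. Of 31 members with several probe sets, 3 had all of them called, 15 some and 13 none, and in 0 were probe sets called in opposite directions. Without wild-type replicate 1 or without wild-type replicate 2 fewer of these probe sets were called, and fewer of all probe sets as well.

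Other genes of the pathway came from a list of 130 outside the members. Of 125 measured, 30 rose and 38 fell (54.4% called, against 38.7% of all genes), with a median difference of 0.05. Dropping wild-type replicate 1 left 31 called, and dropping wild-type replicate 2 also left 31. Among nuclear cofactors 7 rose (35.0%, against 21.5% of all genes) and 5 fell (25%, against 17.2%) of 20. TLE4, a Groucho co-repressor that TCF factors recruit, rose from 5.89 and 5.71 to 9.91 and 10.01 (4.16 ± 0.11, adjusted p = 3.58e-05) with 4 of 5 probe sets. The co-repressor CTBP1 rose by 1.42 ± 0.09 and BCL9, which tethers co-activators to beta-catenin, by 1.08 ± 0.14. For CTBP1 the rise rests on _x_at and _s_at probe sets: with those removed its group means were equal (adjusted p = 1).

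In the cytoplasm 10 genes rose (35.7%, against 21.5% of all genes) and 7 fell (25%, against 17.2%) of 28. CXXC5, a Dishevelled-binding inhibitor, rose from 6.77 and 6.82 to 9.76 and 9.56 with all 3 probe sets (2.87 ± 0.11), while DACT1, another Dishevelled-binding protein, fell by 2.13 and CSNK1E, a kinase that activates Dishevelled, by 1.83. DACT1 went from 4.57 and 4.77 to 2.49 and 2.58, and with values under the median raised to it differed by −0.66. Genes of the polarity branch went both ways, 7 up (33.3%, against 21.5% of all genes) and 6 down (28.6%, against 17.2%) of 21. DAAM1, a formin downstream of Dishevelled, fell from 7.97 and 7.94 to 5.36 and 5.03 with all 5 probe sets (−2.76 ± 0.14). VANGL2, a core polarity protein, rose by 2.08 ± 0.14 and CAMK2D, a calcium-dependent kinase, by 3.07 ± 0.11.

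At the surface and in secretion, most called genes outside the members were lower. WLS, which carries Wnts to the surface, fell from 8.82 and 8.65 to 7.47 and 7.42 with all 3 probe sets (−1.29 ± 0.11, adjusted p = 8.60e-04). Of 6 genes listed as further receptors 4 fell (66.7%, against 17.2% of all genes) and 0 rose. The glypican GPC4 differed by −1.98 ± 0.10, LRP4 by −1.37 ± 0.12 and the pseudokinase PTK7 by −0.43 ± 0.10. LRP4 read 4.18 and 4.10 against 2.90 and 2.65, and with values under the median raised to it differed by −0.13. Of 12 further secreted or surface inhibitors 2 rose (16.7%, against 21.5% of all genes) and 4 fell (33.3%, against 17.2%), among them SFRP4 (1.25 ± 0.20), SOSTDC1 (−0.89 ± 0.13) and TPBG (−0.90 ± 0.13). Raised to the median in the same way, SFRP4 differed by 0.16 and SOSTDC1 by −0.54, and with the mean of its probe sets TPBG differed by −0.36 (adjusted p = 0.162). Of 7 further ligands only WNT2 was called (14.3%, against 38.7% of all genes), at 2.88 and 2.89 against 3.18 and 3.36, under the median on every array. Of the 5 R-spondins and LGR6, only RSPO3 was called (20%, against 38.7% of all genes), at 2.66 and 2.34 against 3.34 and 3.76, also under the median. PTK7, SFRP4, SOSTDC1, TPBG, WNT2 and RSPO3 each lost the call without wild-type replicate 2 (adjusted p = 0.159, 0.0677, 0.065, 0.0664, 0.187 and 0.105, in that order). All of these except SOSTDC1 also lost it without wild-type replicate 1 (0.132, 0.0916, 0.0718, 0.191 and 0.0613), and PTK7, WNT2 and RSPO3 without knockout replicate 2 (0.0833, 0.107 and 0.0638). The fit with the replicate block also ended the calls of PTK7 (adjusted p = 0.0663) and WNT2 (0.0821). PTK7 was further lost with the mean of its probe sets (0.125) and without _x_at and _s_at probe sets (0.45), and WNT2 with an intensity trend (0.103) and without _x_at and _s_at probe sets (0.0536).

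Of 23 measured genes described elsewhere as Wnt targets, 11 fell (47.8%, against 17.2% of all genes) and 2 rose (8.70%, against 21.5%), with a median of −0.28. PTGS2, the inducible cyclooxygenase, led the falls at −8.49 ± 0.11 (−6.51 with values under the median raised to it). MMP7, a matrix protease, differed by −2.44 ± 0.19. TCF4, an E-protein that is not TCF7L2 despite its name, rose by 5.00 ± 0.10 (3.31 with values under the median raised to it) and ID2, an inhibitor of E-proteins, by 2.53 ± 0.12. CCND1, the cyclin D1 gene, did not pass (−0.28 ± 0.10, adjusted p = 0.0728). Many of these genes are also induced by other pathways, and MMP7 and CCND1 were named for their place in textbooks after their values were seen.

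**Figure D4:**
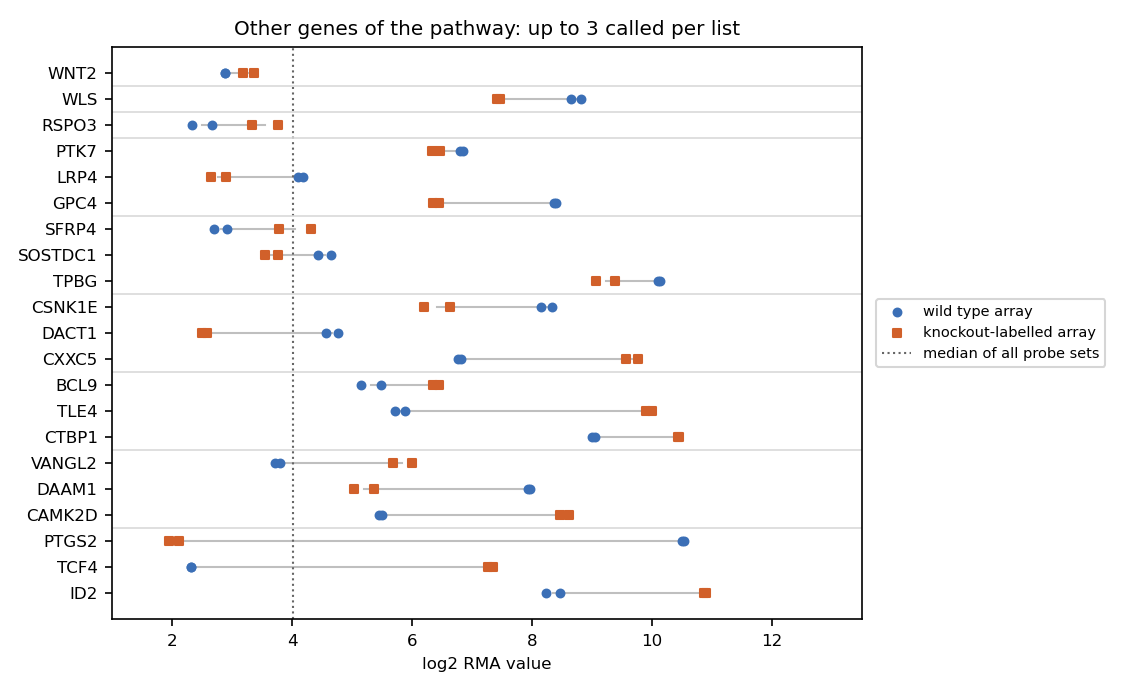
Log2 RMA value on each of the 4 arrays for the 21 genes of the pathway outside the members that the naming rule chose (up to 3 called genes per list, grey lines between lists); circles are wild-type and squares knockout-labelled arrays, and the dotted line is the median of all probe sets. TLE4, CXXC5, CAMK2D and TCF4 lie to the right in the knockout-labelled arrays and DAAM1, GPC4 and PTGS2 to the left.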

How the data were processed

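Total RNA of 4 cell samples, 2 per group, was hybridised to Affymetrix arrays. The deposited log2 values were made by the authors with RMA in the affy package (per the submitters' processing notes, no version), which corrects background, quantile normalizes and summarises each probe set. Array medians were 3.99 to 4.03. The genome build is not given in the sources used here. Probe sets were named by the platform annotation, which can be old and gave 1 symbol for 41091, several for 1801 and none for 11721. Each gene was represented by its probe set with the highest mean, and all 47 members matched RefSeq by identifier.

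The groups were fitted without covariates by lmFit and eBayes of limma 3.58.1 (R 4.3.3), Benjamini-Hochberg adjusted over 19775 genes or, in the probe set fit, 54613 probe sets, at 0.05. On simulated data with 200 of 19775 genes changed, 94% of 4-fold and 41% of 2-fold changes were recovered, with 9 unchanged genes called. In the data 38.7% of genes were called, a far larger share. The adjusted p depends on that share, so the simulation checks the code and does not give the recovery in this comparison. The named genes were all measured members, ARID1A, and per list of other pathway genes up to 3 called ones with the largest difference and no overlap. Members and lists were chosen with earlier results of these data known. The number of arrays limits precision. Alternatives were an intensity trend, averaging the probe sets of each gene, removal of _x_at and _s_at probe sets, filters on the lowest 40 and 60 percent of genes, median centring, a second quantile normalization, a replicate block, a floor at the median and leaving out each array.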

Additional observations from a re-analysis of the deposited data

How the results depend on the processing

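Of the 23 called members, 15 kept their call in every fit that tested them and 20 in all such fits that kept 4 arrays. The filters and the removal of _x_at and _s_at probe sets left some members untested, so WNT5B was tested in 10 fits and DKK1 in 12. Of the 24 uncalled members, 5 were called in at least 1 fit. Without genes in the lowest 60 percent by mean level, 14 of the 16 members still tested were called, 9 of them higher. Of all genes still tested under this filter, 5827 of 7910 were called, so most of the brighter genes passed. With the _x_at and _s_at probe sets removed, 20 of 67 member probe sets and 9125 of 39114 probe sets were called, from fewer probe sets tested. Leaving out each array in turn gave 17 to 24 called members (11 to 15 higher, 6 to 9 lower) and 14 to 33 called member probe sets. It gave 3939 to 6220 called genes (2055 to 3402 higher, 1763 to 2818 lower), 2627 to 10167 called probe sets, and 31 to 53 called other pathway genes (13 to 26 higher, 17 to 27 lower). LEF1 turned to 0.47 (adjusted p = 0.0134) with the mean of its probe sets. With values under the median raised to it, which carries no test, 12 members moved by more than the spread between arrays, to 0 where both groups were dim.

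The labels number the replicates, but with 2 arrays a group nothing shows that equal numbers share a culture. Deviations of same-numbered arrays correlated at −0.105 over all genes. With the replicate block 23 members, 53 other pathway genes and 6679 of all 19775 genes were called. With the crossed pairing, chosen after seeing the data, the counts were 23, 61 and 7301. The main fit, without a block, gave 23, 68 and 7657. RMA values come without a detection call, which limits what a low value can show.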
